A study of Homo sapiens with 6 samples.

Results

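The proteasome is the large protease that degrades ubiquitin-tagged proteins, and its constitutive subunit genes were followed here in MDA-MB-231 cells with and without knockdown of CALR. The genes were chosen by symbol: every row of the deposited count table typed as protein coding and named PSMA, PSMB, PSMC or PSMD with a number, apart from the 3 immunoproteasome subunits PSMB8, PSMB9 and PSMB10. The rule found 38 rows with 36 symbols among 31582 gene rows, 18 of the core particle (PSMA and PSMB) and 20 of the regulatory particle (PSMC and PSMD). PSMA1 and PSMA2 have 2 rows each.

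MDA-MB-231 is an established human breast cancer line, mesenchymal and without hormone receptors. The series holds 3 libraries of cells carrying an shRNA against CALR (genotype CALR knockdown) and 3 libraries of control cells carrying a non-targeting construct, all grown in the same serum-containing medium and collected before confluence. Calreticulin, which CALR encodes, helps glycoproteins fold in the endoplasmic reticulum and binds calcium there. The labels do not state whether the cells of a group came from 1 clone, 1 shRNA sequence or separate cultures, so p-values measure only the spread between these libraries, which may be technical. The sequenced RNA was polyadenylated, and the library kit kept its strand.

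In a working proteasome, the core particle is a barrel of stacked rings. The outer rings of alpha subunits (PSMA) gate the entrance, and the inner rings of beta subunits (PSMB) hold the proteolytic sites. The regulatory particle caps the barrel: a base with a ring of ATPases (PSMC) unfolds substrates, and a lid (PSMD) removes their ubiquitin chains. Cells that lose proteasome activity are known to raise many subunit genes together through the transcription factor NFE2L1, which is itself made in the endoplasmic reticulum membrane.

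The libraries held 34639090 to 42425310 counts. CALR was at 493.4, 66.4 and 110.1 CPM, the normalised count scaled to library size, in knockdown libraries 1 to 3, against 1213, 979 and 925.6 CPM in control libraries 1 to 3. The knockdown libraries thus held 47.5%, 6.39% and 10.6% of the control mean, and CALR was least reduced in knockdown library 1. Its log2 fold change was -2.22 ± 0.64 (SE; adjusted p = 0.21, edgeR's quasi-likelihood test), and an exact two-sided permutation test gave 0.1, the smallest p that 3 against 3 libraries allow. Of 6 markers listed for the line, VIM was at 2491 to 3177 CPM in knockdown and 1697 to 1840 CPM in control libraries. CD44, AXL, MSN and CAV1 were at 232.1 CPM or more in every library, while SPARC was near absent at 0.185 to 0.51 CPM. The T cell marker CD3E and the liver marker ALB were at 0 to 0.0458 CPM. PTPRC of blood cells and CDH5 of endothelium stayed at or under 0.257 CPM, while PECAM1, also an endothelial marker, had 4.17, 1.71 and 1.82 CPM in knockdown libraries, against 1.56, 0.961 and 0.848 CPM in control libraries; the part of other cells in the results was not tested. Tested alike, 0 of 16394 genes passed an adjusted p of 0.05.

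Most subunit genes had higher mean levels in CALR knockdown cells, by modest amounts. Of the 38 rows, 36 had enough counts to be tested (34 symbols, 16 core and 20 regulatory rows); PSMA8, a testis subunit, and PSMB11, a thymus subunit, had 0 or 1 count per library. The fitted log2 fold change was positive for 28 of the 36 rows (77.8%), against 49.9% of all genes tested, and its median was 0.23, against -0.001 over all genes and 0.02 over protein-coding genes. None of the 36 passed an adjusted p of 0.05 in edgeR's test (background 0%), and none did in limma-voom (background 0%). In DESeq2 1 did (PSMA1, lower), against 3.23% of all genes. An unadjusted p under 0.05 was reached by 7 rows on the higher side (19.4%, against 8.17% of all genes) and by 2 on the lower side, both of PSMA1 (against 7.36% of all genes); both directions together were 9 of 36, against 15.5%. In 14 rows every knockdown library lay above every control library (38.9%, against 11.3% of all genes), in 2 every knockdown library lay below (against 11.2%), and in 20 the groups overlapped. In bulk RNA, fewer cells of a type and less RNA per cell cannot be told apart.

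The libraries differed in how far the subunits moved. The median log2 difference of the 36 rows from the control mean was 0.17, 0.12 and 0.34 in knockdown libraries 1 to 3, and -0.10, 0.07 and 0.01 in control libraries 1 to 3. Knockdown library 3 stood highest and control library 1 lowest, with all knockdown medians above all control medians. Summed over the 36 rows, subunit RNA was 7966, 7522 and 9457 CPM in the knockdown libraries, against 6387, 7451 and 7031 CPM in the control libraries. The sum was 8315 ± 1013 CPM in knockdown and 6956 ± 536.1 CPM in control libraries (SD, n = 3 each), and knockdown library 2 was close to control library 2. Without the TMM scaling factors, the median over all genes was -0.133 and that of the subunits 0.09, so the distance between both medians stayed near that of the scaled data; the split at an unadjusted p under 0.05 was then 1 higher (background 4.45%) and 3 lower (background 11%).

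**Figure D1:**
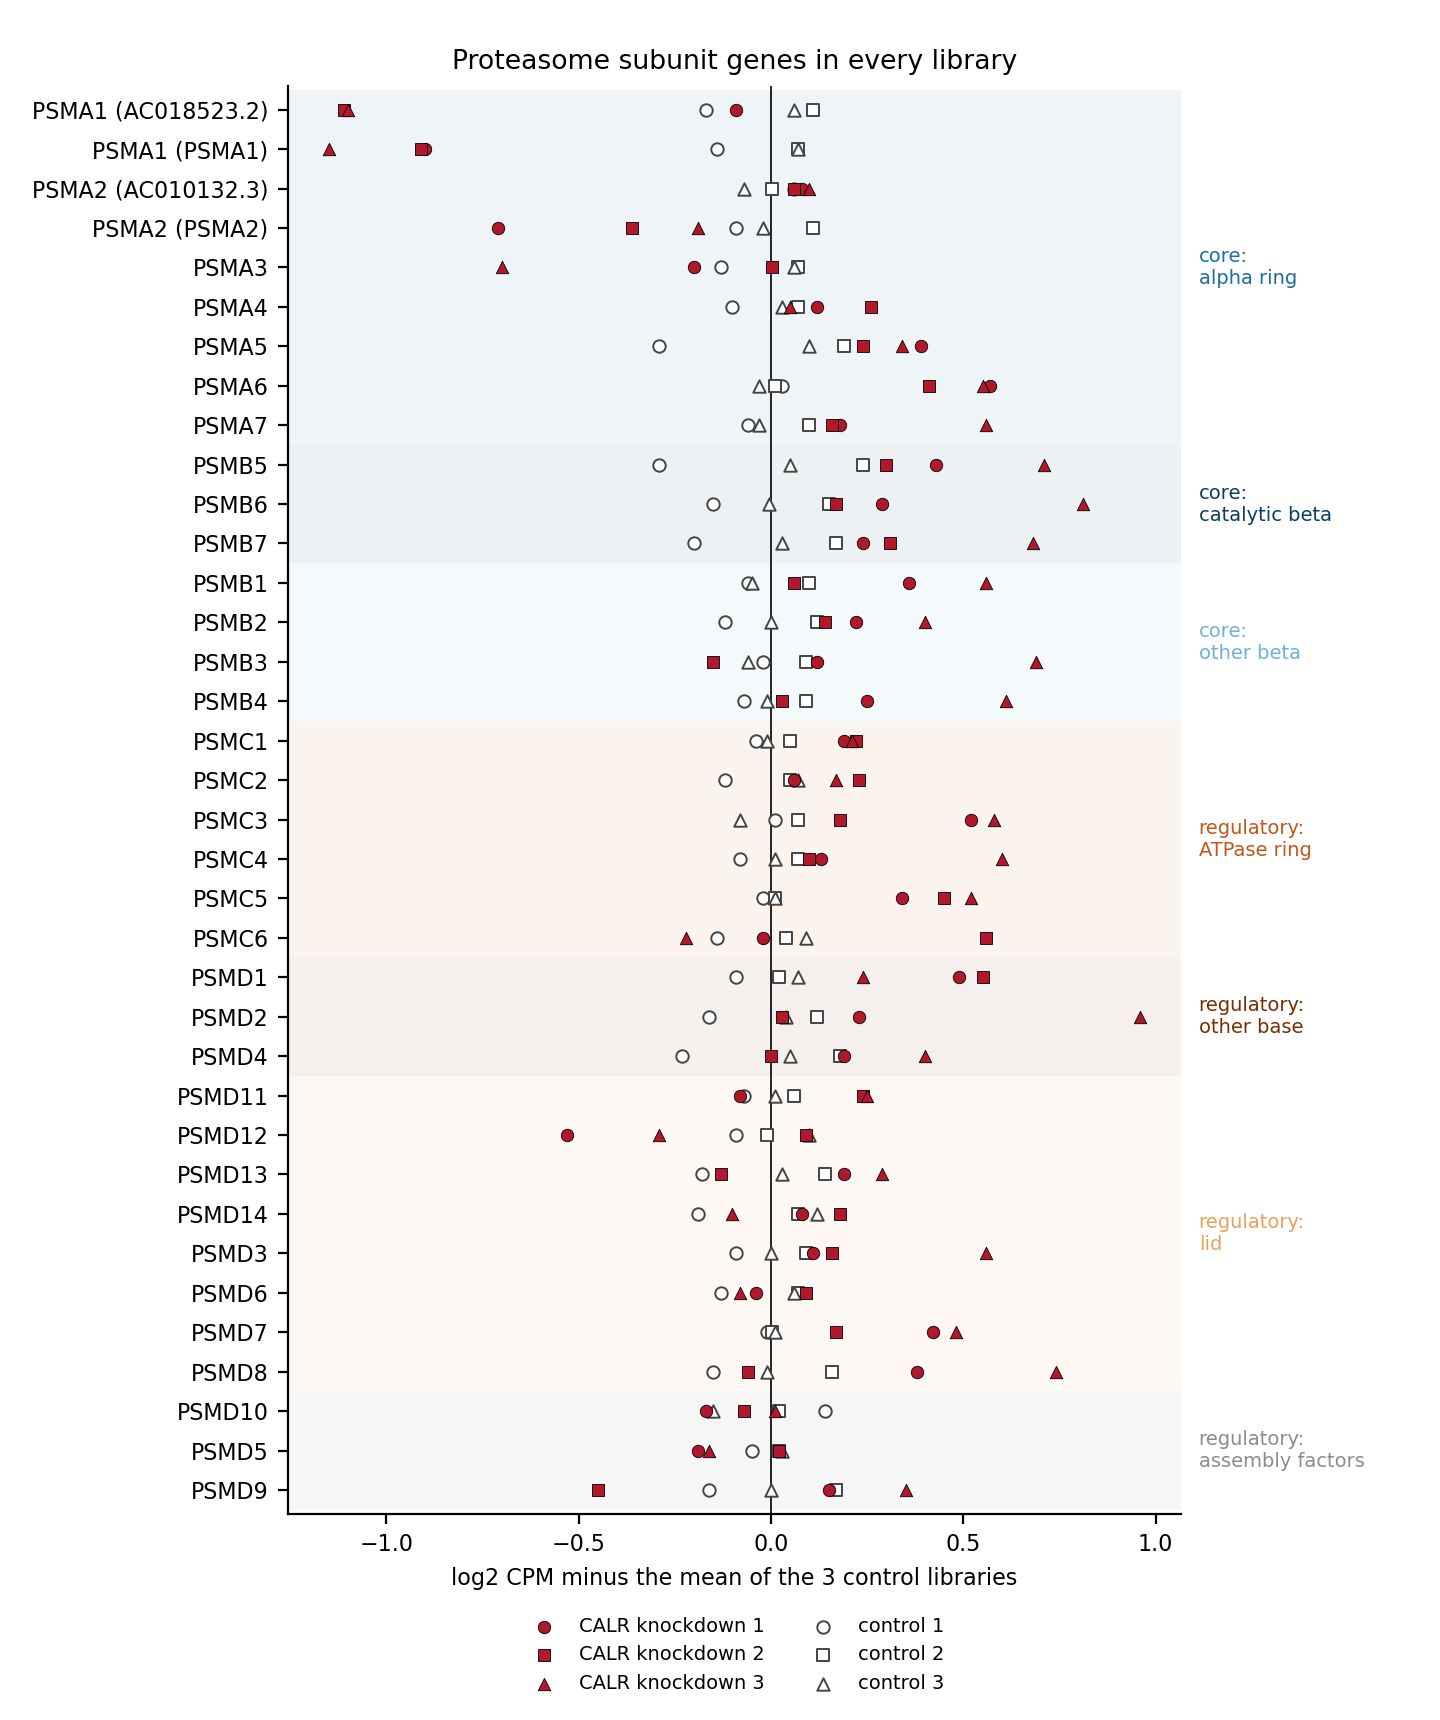
Difference of each library from the mean of the 3 control libraries, in log2 CPM, for each of the 36 tested subunit rows (down the page, shaded by structural class; filled symbols are CALR knockdown libraries, open symbols control libraries). The catalytic beta subunits lie to the right of all control libraries in all knockdown libraries, both PSMA1 rows lie to the left in knockdown libraries 2 and 3, and the assembly factors straddle 0; library size alone turns PSMA2 (AC010132.3), PSMD9, PSMD13 and PSMD14 negative.

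The 3 catalytic beta subunits were the class in which every row was higher in every knockdown library than in any control library. PSMB5, the chymotrypsin-like site and the main target of proteasome inhibitor drugs (chromosome 14, 23016543 to 23035230, GENCODE 29 on GRCh38), had 302.4, 276.0 and 367.5 CPM in knockdown libraries 1 to 3, against 183.9, 264.7 and 232.3 CPM in control libraries 1 to 3. The lowest knockdown library was only slightly above the highest control library. Its log2 fold change was 0.47 ± 0.19 (SE), with an adjusted p of 0.29 in edgeR's test. PSMB6, the caspase-like site (chromosome 17, 4796144 to 4798503), had 203.0, 186.6 and 291.0 CPM in the knockdown libraries, against 149.8, 184.2 and 165.4 CPM in the control libraries. Here knockdown library 3 was well above the rest, and knockdown library 2 and control library 2 nearly met. PSMB7, the trypsin-like site (chromosome 9, 124353466 to 124415444), had 419.9, 441.5 and 567.5 CPM in the knockdown libraries, against 309.6, 399.7 and 362.5 CPM in the control libraries. The log2 fold changes were 0.45 ± 0.20 for PSMB6 and 0.41 ± 0.18 for PSMB7 (SE), with adjusted p of 0.33 and 0.32 in edgeR's test. Without knockdown library 3, PSMB6 was at 0.24.

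The 4 other beta subunits, which complete the inner rings without an active site, were also positive, so that all 7 beta rows had a log2 fold change between 0.26 and 0.47 (median 0.34). All 7 kept a positive sign with library size alone and with each library left out in turn. PSMB2, a lowest value of the family, had 223.7, 211.7 and 254.3 CPM in the knockdown libraries, against 176.5, 209.2 and 192.1 CPM in the control libraries, with no overlap and a log2 fold change of 0.26 ± 0.15 (SE). PSMB3, the other low one, had 153.9, 127.6 and 228.1 CPM in the knockdown libraries, against 139.0, 150.3 and 135.2 CPM in the control libraries. Knockdown library 2 was the lowest of the 6 for PSMB3 and knockdown library 3 the highest, so the value of 0.26 ± 0.22 (SE) rested on library 3 and was 0.01 without it. PSMB1 and PSMB4 had log2 fold changes of 0.34 ± 0.17 and 0.32 ± 0.18 (SE) and overlapped between groups through knockdown library 2; PSMB4 was at 0.16 without knockdown library 3.

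Alpha subunits were the most divided class, with 5 positive and 4 negative rows and a median log2 fold change of 0.08. PSMA7 and PSMA5, structural members of the outer ring, were higher in every knockdown library. PSMA7 had 568.3, 562.3 and 740.7 CPM in the knockdown libraries, against 480.4, 537.3 and 491.5 CPM in the control libraries. PSMA5 had 484.5, 436.7 and 467.0 CPM in the knockdown libraries, against 301.9, 420.9 and 395.1 CPM in the control libraries. Both log2 fold changes were 0.31 ± 0.17 (SE), and they were 0.18 for PSMA7 without knockdown library 3 and 0.18 for PSMA5 without control library 1, its lowest library. PSMA4 was at 0.15 ± 0.15 and PSMA3 at -0.27 ± 0.20 (SE), with PSMA3 down to 122.2 CPM in knockdown library 3 and at 172.8 and 199.2 CPM in the other 2 knockdown libraries, against 181.0 to 208.9 CPM in the control libraries.

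PSMA1, PSMA2 and PSMA6 cannot be read from a single row each, because read-through genes share their exons. The second row named PSMA1 has the annotated name AC018523.2 and shares 100% of its exon bases with PSMA1 and COPB1; the second PSMA2 row, AC010132.3, shares 90.2% with C7orf25 and PSMA2; and RP11-561B11.2 shares 97.9% with KIAA0391 and PSMA6. How shared reads were assigned is not given in the sources used here. The row carrying the gene's own annotation held only 16.0% to 27.6% of the locus counts for PSMA1, 2.42% to 4.44% for PSMA2 and 1.77% to 1.99% for PSMA6.

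At the PSMA1 locus (chromosome 11, 14504874 to 14643635, minus strand), the PSMA1 row had 25.3, 25.0 and 21.2 CPM in the knockdown libraries, against 42.7, 49.4 and 49.6 CPM in the control libraries. All 3 knockdown libraries were near 1 low level, with no overlap. The log2 fold change of -0.99 ± 0.17 (SE) had the lowest adjusted p of the subunits, 0.15 in edgeR's test, and passed the threshold in DESeq2 (-0.97; background 1.77% of genes higher and 1.46% lower), in edgeR without a count filter (-0.97; background 1.36% higher and 1.76% lower) and without knockdown library 2 (-1.02). The AC018523.2 row had 133.0, 65.6 and 66.1 CPM in the knockdown libraries, against 125.5, 152.5 and 147.2 CPM in the control libraries. Knockdown library 1, the one with the most CALR left, stayed within the control range in this row. Summed, the locus had 158.3, 90.6 and 87.3 CPM in the knockdown libraries, against 168.2, 201.9 and 196.8 CPM in the control libraries, a log2 fold change of -0.75 ± 0.24 (SE) with an adjusted p of 0.23 in edgeR's test.

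PSMA6 and PSMA2 behaved differently from PSMA1. The PSMA6 row (chromosome 14, 35278633 to 35317493) had 8.6, 7.67 and 8.45 CPM in the knockdown libraries, against 5.87, 5.79 and 5.64 CPM in the control libraries, the highest log2 fold change of all subunits at 0.51 ± 0.20 (SE). Its read-through partner RP11-561B11.2 had 423.5, 388.0 and 458.0 CPM in the knockdown libraries, against 298.3, 321.3 and 298.6 CPM in the control libraries, so the sum of both rows gave 0.47 ± 0.15 (SE). KIAA0391, the upstream gene of that read-through, was at 0.62 ± 0.15 (SE), and which of both genes the shared reads came from was not tested. The PSMA2 row had 3.97, 5.09 and 5.71 CPM in the knockdown libraries, against 6.14, 7.06 and 6.46 CPM in the control libraries, while the locus sum of 163.9, 163.2 and 167.8 CPM in knockdown and 164.5, 159.0 and 151.1 CPM in control libraries overlapped (0.06 ± 0.14, SE).

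**Figure D2:**
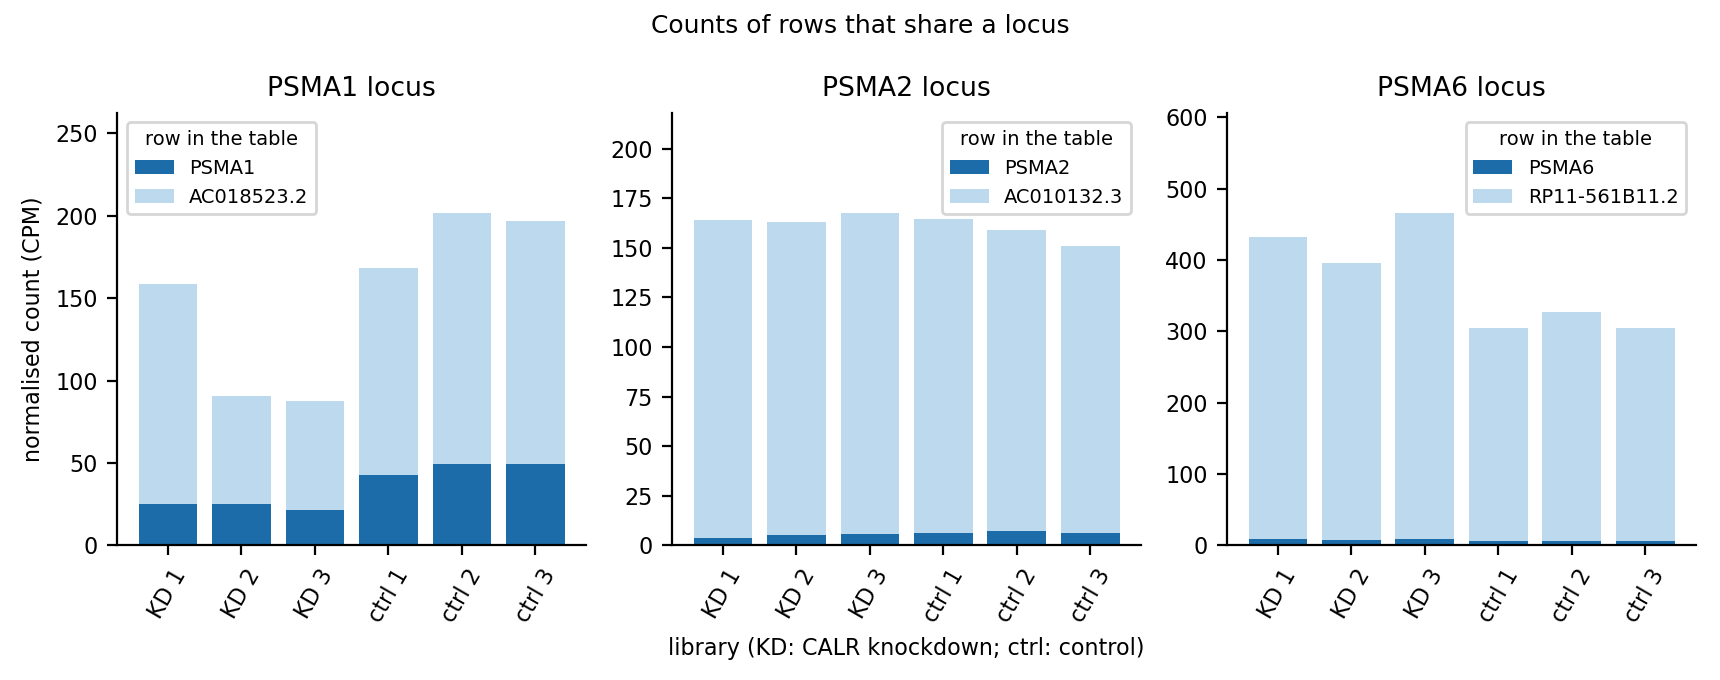
Normalised counts (CPM) at 3 loci whose reads are divided between 2 rows of the deposited table, in each knockdown (KD) and control (ctrl) library; dark bars are the row under the subunit's own annotation, light bars the read-through row stacked on it. The PSMA1 sum is 158.3, 90.6 and 87.3 CPM in knockdown and 168.2 to 201.9 CPM in control libraries, the PSMA2 sum is level, and the PSMA6 sum is higher in all 3 knockdown libraries.

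In the regulatory particle, the 6 ATPases of the base were all positive (49.9% of all genes tested were), with a median log2 fold change of 0.25, and 4 of them lay above all control libraries in every knockdown library (11.3% of all genes did). PSMC5 (chromosome 17, 63827152 to 63832026) was among the highest of them, with 256.1, 277.5 and 290.0 CPM in the knockdown libraries, against 199.9, 204.2 and 203.5 CPM in the control libraries. The knockdown libraries lay clearly apart from a tight control group, at a log2 fold change of 0.44 ± 0.14 (SE) (adjusted p = 0.23, edgeR). PSMC3 (chromosome 11, 47418769 to 47426473) had 337.6, 266.6 and 351.8 CPM in the knockdown libraries, against 236.5, 245.7 and 222.9 CPM in the control libraries, with no overlap and 0.44 ± 0.16 (SE). PSMC1 and PSMC4 had smaller values of 0.21 ± 0.14 and 0.29 ± 0.18 (SE), also without overlap. Leaving out knockdown library 3 lowered PSMC4 to 0.13, while PSMC1 stayed between 0.19 and 0.24 with any library left out.

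The lowest ATPase values were those of PSMC2 and PSMC6. PSMC2 had 198.8, 224.2 and 215.5 CPM in the knockdown libraries, against 175.8, 198.0 and 200.7 CPM in the control libraries, and the groups overlapped through knockdown library 1. PSMC6 had 121.2, 180.8 and 105.9 CPM in the knockdown libraries, against 111.9, 126.7 and 131.3 CPM in the control libraries. Knockdown library 2 alone was high for PSMC6; the log2 fold change was 0.14 ± 0.21 (SE), and -0.11 without that library. Exon bases of PSMC1 (75.8%, with NRDE2) and PSMC5 (19.5%, with FTSJ3) overlap a gene on the other strand; the strand setting of the counting is not given in the sources used here.

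The other base subunits were positive too. PSMD1, a scaffold that docks ubiquitin receptors (chromosome 2, 231056864 to 231172827), had 156.4, 163.6 and 131.8 CPM in the knockdown libraries, against 105.0, 113.1 and 116.7 CPM in the control libraries, with no overlap and a log2 fold change of 0.43 ± 0.15 (SE). Unlike most subunits, PSMD1 was lowest of the knockdown group in library 3. PSMD2, the other large scaffold (chromosome 3, 184298709 to 184309054), had 817.3, 709.0 and 1351 CPM in the knockdown libraries, against 624.3, 757.8 and 714.5 CPM in the control libraries. Knockdown library 3 stood far above the rest, and the value of 0.46 ± 0.25 (SE) was 0.14 without it. PSMD4, a ubiquitin receptor, was at 0.20 ± 0.18 (SE) with overlapping groups.

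Lid subunits were mixed, with 6 of 8 rows positive and a median log2 fold change of 0.13, and 4 of 8 positive with library size alone, where PSMD13 and PSMD14 were negative. PSMD7, the partner of the lid's deubiquitinase (chromosome 16, 74296775 to 74306288), had 217.7, 183.6 and 226.8 CPM in the knockdown libraries, against 161.6, 163.3 and 164.0 CPM in the control libraries. The groups did not overlap and the log2 fold change was 0.36 ± 0.15 (SE), although 30.7% of its exon bases overlap AC009120.2 on the other strand. PSMD14, the deubiquitinase itself, had 192.1, 206.0 and 168.9 CPM in the knockdown libraries, against 158.5, 190.8 and 196.7 CPM in the control libraries. The groups overlapped, with knockdown library 2 the highest and control library 1 the lowest of all libraries (0.05 ± 0.16, SE). PSMD12, the lowest of the family, had 109.8, 169.3 and 130.3 CPM in the knockdown libraries, against 149.2, 157.3 and 170.8 CPM in the control libraries. Knockdown libraries 1 and 3 were below all controls for PSMD12, library 2 was not, and the log2 fold change was -0.22 ± 0.19 (SE). The remaining lid values were 0.38 ± 0.22 for PSMD8 (0.19 without knockdown library 3), 0.29 ± 0.17 for PSMD3 (no overlap; 0.15 without that library), 0.14 ± 0.16 for PSMD11, 0.12 ± 0.17 for PSMD13 and -0.01 ± 0.15 for PSMD6 (SE).

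PSMD5, PSMD9 and PSMD10 carry PSMD symbols but are chaperones that help the base assemble and leave the finished particle. PSMD5 had 74.1, 85.8 and 75.5 CPM in the knockdown libraries, against 81.5, 85.8 and 85.9 CPM in the control libraries. PSMD10 had 33.9, 36.2 and 38.4 CPM in the knockdown libraries, against 41.9, 38.5 and 34.3 CPM in the control libraries. PSMD9 had 150.0, 98.5 and 171.3 CPM in the knockdown libraries, against 120.3, 151.2 and 134.7 CPM in the control libraries. All 3 overlapped between groups (19.9% of the exon bases of PSMD9 are shared with AC069503.2 and WDR66). The log2 fold changes were -0.10 ± 0.15 for PSMD5, -0.08 ± 0.17 for PSMD10 and 0.05 ± 0.22 for PSMD9 (SE). The 6 dedicated assembly factors outside the PSMA to PSMD symbols build the core (PSMG1 to PSMG4 and POMP) or the base (PAAF1). Their median was 0.06. Of these 6, 0 reached an unadjusted p under 0.05 (15.5% of all genes did) and 0 were without overlap (11.3% of all genes on the higher side and 11.2% on the lower side).

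The core and the regulatory particle did not differ beyond the libraries' spread. The median log2 fold change was 0.29 for the 16 core rows, of which 3 on the higher and 2 on the lower side had an unadjusted p under 0.05, and 0.17 for the 20 regulatory rows, where these numbers were 4 and 0 (8.17% and 7.36% of all genes tested). The median core value minus the median regulatory value was 0.06, -0.03 and 0.21 in the knockdown libraries, against -0.02, 0.04 and -0.02 in the control libraries. Knockdown library 2 was the lowest of all 6, so the groups overlapped. The difference of the fitted medians was 0.11. It was 0.14 without the PSMA1, PSMA2 and PSMA6 rows, and 0.08 without PSMD5, PSMD9 and PSMD10. Leaving out knockdown library 3 lowered it to 0.04 and the core median to 0.19. Summed RNA was 3724, 3476 and 4310 CPM for the core rows in the knockdown libraries, against 2946, 3510 and 3251 CPM in the control libraries, and 4242, 4046 and 5146 CPM for the regulatory rows in the knockdown libraries, against 3440, 3941 and 3781 CPM in the control libraries.

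The values moved with the GC content of the transcripts. Across the 36 rows the Spearman correlation of log2 fold change with GC content was 0.58 (0.32 over all genes tested); these points share libraries, depth and base composition. Within libraries the correlation of the difference from the control mean with GC content was 0.48, -0.08 and 0.82 in knockdown libraries 1 to 3, against 0.04, 0.33 and -0.46 in control libraries 1 to 3. Over all genes tested, these correlations were 0.33, -0.23 and 0.51 in knockdown libraries 1 to 3, against 0.02, 0.28 and -0.32 in control libraries 1 to 3. The correlation was thus highest in knockdown library 3 for the subunits and for all genes alike. That library also had the highest subunit levels. The 19 rows with a GC content of 45% or more were all positive (median 0.31, against 0.11 for all genes of that range). The 17 rows below 45% were divided, 9 positive and 8 negative (median 0.05, against -0.19 for all genes of that range). In both ranges the subunit median stood above that of all genes. The 45% limit was chosen after the data were seen.

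With each library's GC trend removed, the median over the subunits was 0.22, and 31 of 36 rows were positive (51.8% of all genes). At an unadjusted p under 0.05, 13 rows were then higher (36.1%, against 9.47% of all genes) and 1 was lower, PSMA1 (against 8.66%); both directions came to 14, against 18.1%. None passed the adjusted threshold in edgeR's test, against 0.0244% of all genes. Core and regulatory medians were 0.28 and 0.18. Rows of low GC content were among those that moved most. PSMD14 was at 0.47 ± 0.20, PSMC6 at 0.39 ± 0.12, PSMA5 at 0.59 ± 0.22 and PSMC2 at 0.38 ± 0.15 (SE). PSMD12 and PSMA3 came close to 0, at 0.05 ± 0.14 and -0.03 ± 0.15 (SE). The median of the 17 rows below 45% GC rose from 0.05 to 0.34 (0.01 over all genes of that range). That of the 19 rows at 45% or more fell from 0.31 to 0.20 (against 0.02). The catalytic PSMB5, PSMB6 and PSMB7 fell to 0.35, 0.29 and 0.37, and PSMC3 and PSMC5 to 0.29 and 0.33. The PSMA1 row remained low at -0.87 ± 0.14 (SE). The AC018523.2 row, which holds most counts of that locus, moved from -0.68 to -0.40 ± 0.32 (SE), and the locus sum from -0.75 to -0.62. PSMD1, at 0.56 ± 0.12 (SE), had the lowest p of the higher rows after the correction. All 8 lid rows and all 6 ATPases were positive with the correction, and the assembly factors PSMD5, PSMD9 and PSMD10 were at 0.05, -0.08 and 0.08.

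**Figure D3:**
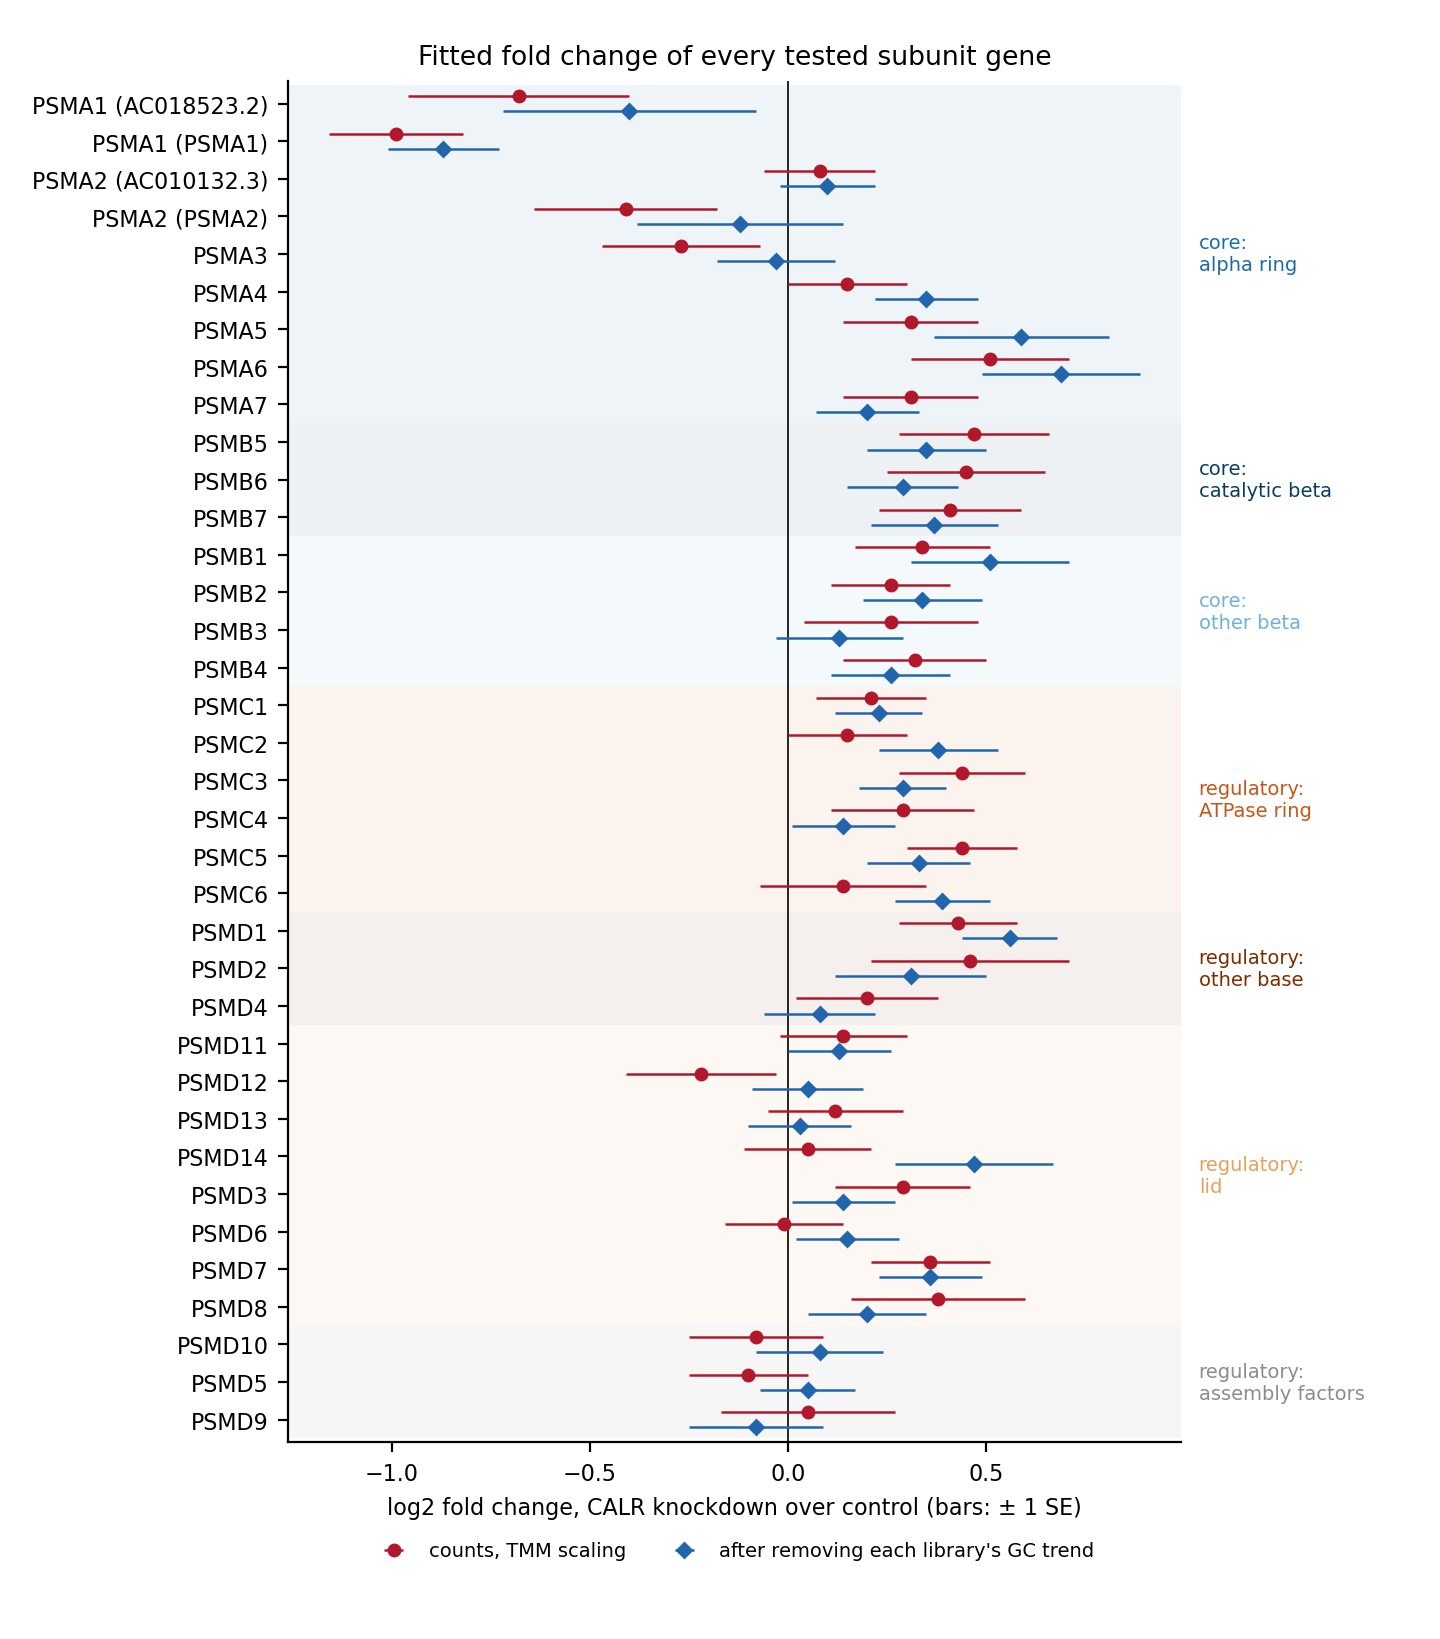
Log2 fold change of CALR knockdown over control with ± 1 SE for each of the 36 subunit rows, from the counts with TMM scaling (red circles) and with each library's GC trend removed (blue diamonds). Beta subunits and ATPases lie right of 0 in both, both PSMA1 rows lie left, and PSMD14 moves most with the correction; PSMA2 (AC010132.3), PSMD9, PSMD13 and PSMD14 turn negative with library size alone.

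**Figure D4:**
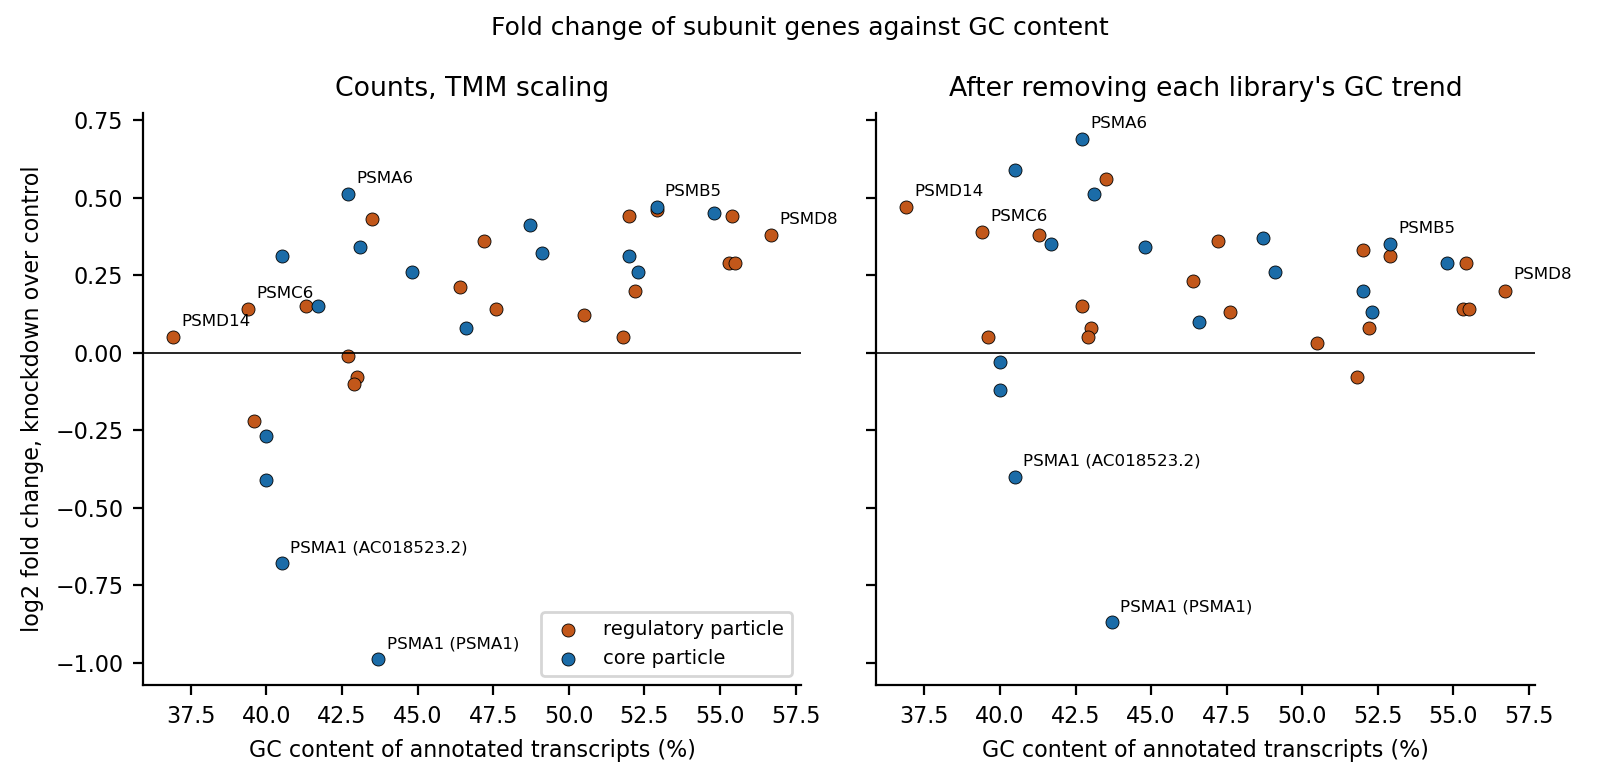
Log2 fold change of each tested subunit row against the GC content of its annotated transcripts in percent, before (left) and after (right) removal of each library's GC trend; blue points are core rows and orange points regulatory rows. On the left the 19 rows at 45% or more all lie above 0 and the 17 rows below 45% are split, and on the right the trend is gone (Spearman correlation -0.07).

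Leaving out knockdown library 2, in which CALR was lowest, changed the calls most. Without it, 5 of the 36 rows passed the adjusted threshold in edgeR's test: PSMB1 (0.47), PSMC3 (0.56), PSMD7 (0.45) and PSMD8 (0.57) were higher and PSMA1 lower, against backgrounds of 7.76% of genes higher and 7.75% lower. The rows higher at an unadjusted p under 0.05 then numbered 16, but 17.9% of all genes were also on that side. Without knockdown library 3 the number was 4 (7.83% of all genes) and the median 0.15. Without control library 3 it was 0 (2.87%) and the median 0.22. It was 2 without knockdown library 1 (5.33%), 1 without control library 1 (6.35%) and 1 without control library 2 (3.86%). The positive median was thus kept with each library left out, between 0.15 and 0.30, and the count of rows under 0.05 was not.

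The 6 pseudogene rows of subunit genes held at most 33 counts per library, so a split of reads with them was small as counted. Levels compared between genes use the deposited FPKM, which divides by gene length. PSMB7, PSMB4, PSMA7 and PSMB1 led in knockdown libraries, with means of 433.9 ± 53.0, 367.2 ± 50.4, 354.9 ± 37.9 and 283.3 ± 28.2 FPKM (SD, n = 3 each). The same 4 genes led in control libraries, where the order ran from PSMB7 (356.9 ± 52.0 FPKM), PSMB4 (323.9 ± 24.4), PSMA7 (313.7 ± 23.3) and PSMB1 (246.0 ± 18.2) down to PSMD11 (30.7 ± 2.04), PSMD10 (24.1 ± 1.79), PSMD5 (24.0 ± 1.33), the PSMA1 row (20.6 ± 2.23), the PSMA2 row (4.31 ± 0.38) and the PSMA6 row (3.92 ± 0.045; SD, n = 3 each). Of the 35 neighbouring pairs in the control order, 29 overlapped between control libraries and so did not differ beyond their spread. Without the 5 rows of PSMA1, PSMA2 and PSMA6, the highest level was 14.9 times the lowest, that of PSMD5, a chaperone that leaves the finished particle. The subunits that stay in the particle still ran from PSMB7 at 356.9 FPKM to PSMD11 at 30.7 FPKM, although they are assembled in fixed proportions. The length behind these values ran from 827.1 bases for PSMB3 to 5182 bases for PSMB2, and over 31 rows FPKM fell with that length (Spearman correlation -0.71); the part of that length in the order was not tested. Over all tested rows, the median control level was 132.8 FPKM for the 16 core rows and 64.3 FPKM for the 20 regulatory rows. It was 186.8 FPKM for the core without the PSMA1, PSMA2 and PSMA6 rows. For the regulatory particle without PSMD5, PSMD9 and PSMD10 it was 80.3 FPKM. Across the 31 rows without those of PSMA1, PSMA2 and PSMA6, FPKM and log2 fold change had a Spearman correlation of 0.53.

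**Figure D5:**
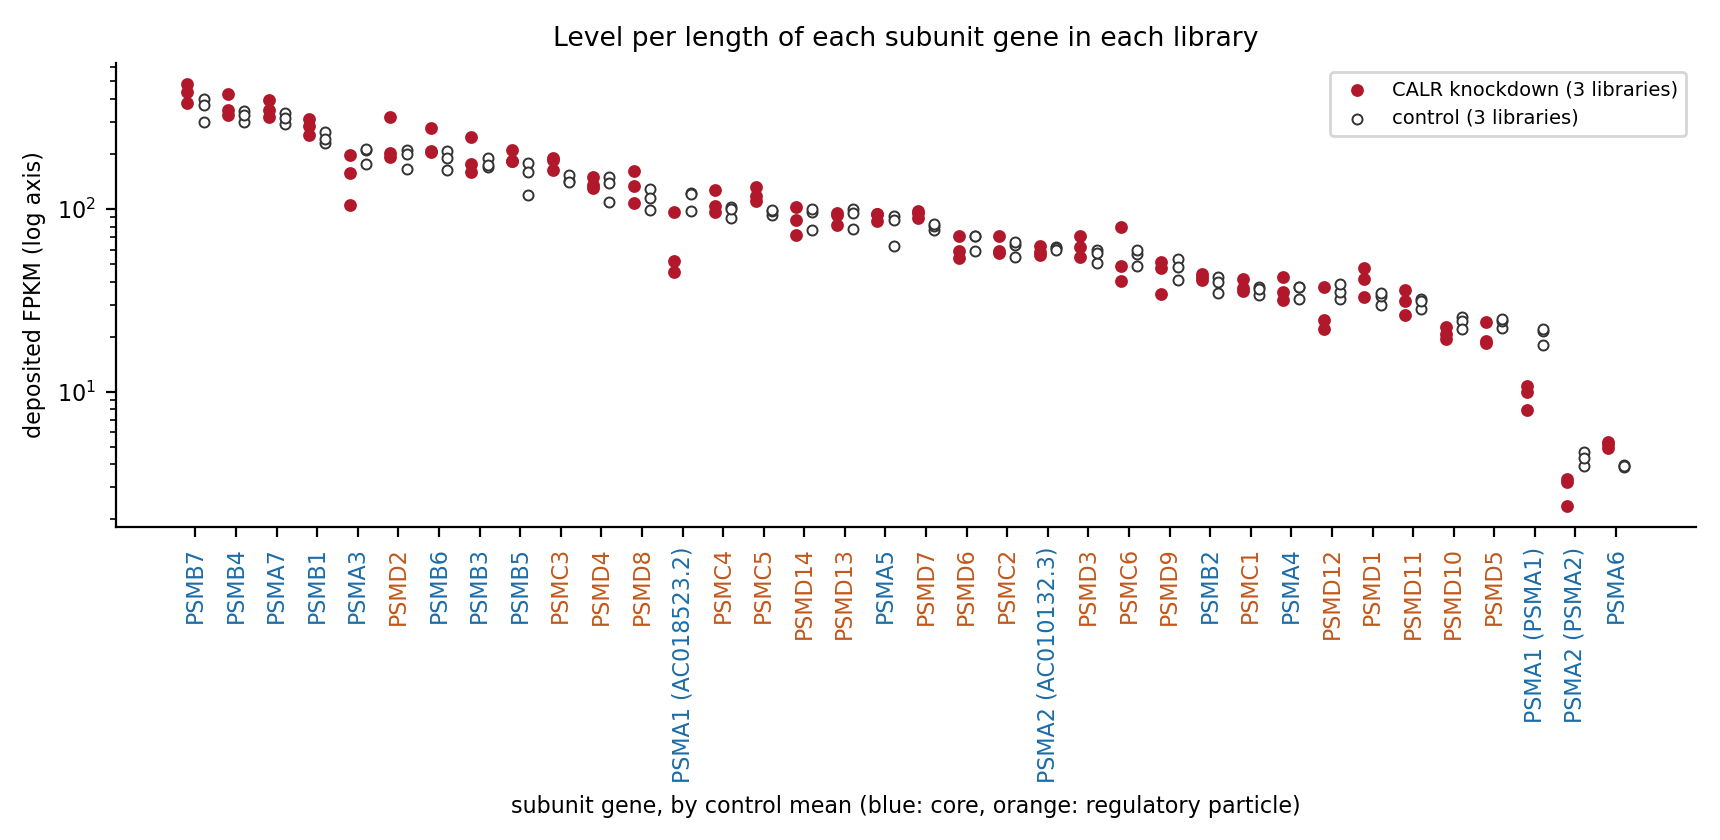
Deposited FPKM of each tested subunit row in each library on a log axis, ordered by control mean, with knockdown libraries (red) left of control libraries (open); gene names are blue for the core and orange for the regulatory particle. PSMB7, PSMB4, PSMA7 and PSMB1 lead in both groups, and the PSMA1, PSMA2 and PSMA6 rows, whose reads are shared with read-through rows, are at the bottom.

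Of 20 tested genes that control proteasome transcription, 3 on the higher side and 3 on the lower side reached an unadjusted p under 0.05 (8.17% and 7.36% of all genes), and the median was -0.10. NFE2L1, the factor that raises subunit genes, had 380.3, 306.3 and 452.7 CPM in the knockdown libraries, against 310.4, 288.7 and 280.4 CPM in the control libraries. It overlapped between groups through knockdown library 2, at a log2 fold change of 0.37 ± 0.18 (SE). DDI2, the protease that cuts NFE2L1 into its active form, had 15.1, 17.3 and 11.7 CPM in the knockdown libraries, against 25.7, 27.5 and 29.1 CPM in the control libraries. VCP, the ATPase that pulls NFE2L1 out of the membrane, had 484.1, 498.9 and 622.0 CPM in the knockdown libraries, against 330.7, 355.4 and 333.7 CPM in the control libraries. Neither gene overlapped between groups; the log2 fold changes were -0.90 ± 0.20 for DDI2 and 0.65 ± 0.16 for VCP (SE), with adjusted p of 0.16 and 0.18 in edgeR's test. NFE2L2, a related factor of the oxidative stress response, was at -0.33 ± 0.23 (SE), with 84.8, 150.6 and 91.7 CPM in the knockdown libraries, against 142.0, 126.1 and 143.5 CPM in the control libraries. The other genes under 0.05 were KEAP1 (0.46 ± 0.20) and UFD1L (0.42 ± 0.19) on the higher side and SEL1L (-0.48 ± 0.19) and STAT3 (-0.44 ± 0.17, SE) on the lower side.

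NFE2L1 and NFE2L2 bind the antioxidant response element, and 7 subunit genes held its core letters TGACNNNGC, or GCNNNGTCA on the other strand, within 250 bases before their start. RefSeq promoters (GRCh38.p14) were matched for 31 of the 36 symbols, so the share was 22.6%, against 13.2% of 27305 genes with a promoter of the same length. The matches are shown because they are the letters through which these factors could be read; capitals mark the match, and each is written 5′ to 3′ on the gene's own strand. A match is not a shown binding site.
PSMC5 (chr17:63827654-63827682, plus strand): gaccggatctGCTGTGTCAgcgccgccct
PSMB3 (chr17:38752627-38752655, plus strand): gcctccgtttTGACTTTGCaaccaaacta
PSMD3 (chr17:39980760-39980788, plus strand): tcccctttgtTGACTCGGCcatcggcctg
PSMA4 (chr15:78540650-78540678, plus strand): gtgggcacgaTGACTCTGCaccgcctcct
PSMD12 (chr17:67366724-67366752, minus strand): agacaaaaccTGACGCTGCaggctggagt
PSMD5 (chr9:120843038-120843066, minus strand): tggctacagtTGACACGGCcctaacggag
PSMD9, first (chr12:121888631-121888659, plus strand): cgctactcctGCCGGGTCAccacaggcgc
PSMD9, second (chr12:121888678-121888706, plus strand): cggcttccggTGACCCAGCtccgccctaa

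The 7 genes with these letters had a median log2 fold change of 0.15, against 0.18 for the 22 tested genes without them, and ranged from PSMC5 at 0.44 to PSMD12 at -0.22. The difference was not tested. CCAAT, or ATTGG on the other strand, the letters bound by the factor NF-Y, stood in 16 of the 31 promoters (51.6%, against 37.0% of all genes), with a median of 0.21 for the 15 tested genes that held it and 0.14 for the 14 that did not.

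Subunits and partners outside the symbol rule showed where the values of the constitutive genes stood. The other regulatory particle subunits and partners had a median of 0.07 over 14 tested genes. Of these 14 genes, 0 had an unadjusted p under 0.05, against 15.5% of all genes. ADRM1, a ubiquitin receptor of the base, was at 0.40 ± 0.21 (SE). Ubiquitin genes and the enzymes that load ubiquitin had a median of -0.03 over 12 genes. UBE2S (0.66 ± 0.21, SE), on the higher side, was the only one of them under 0.05 (8.33%, against 8.17% of all genes). The immunoproteasome subunits, the activators and the inhibitor PSMF1 had the highest median, 0.42 over 8 genes, all positive. On the higher side, 3 of these 8 were under 0.05 (37.5%, against 8.17% of all genes). On the lower side there were 0 (7.36% of all genes). PSME1, a subunit of the interferon-inducible activator, had 208.7, 173.9 and 181.1 CPM in the knockdown libraries, against 121.6, 123.4 and 113.5 CPM in the control libraries, at 0.65 ± 0.15 (SE) (adjusted p = 0.17, edgeR).

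The immunoproteasome catalytic subunits PSMB8, PSMB9 and PSMB10 replace PSMB5, PSMB6 and PSMB7 in cells exposed to interferon. PSMB8 had 126.7, 65.4 and 132.9 CPM in the knockdown libraries, against 67.6, 79.0 and 70.6 CPM in the control libraries. PSMB9 had 24.1, 11.0 and 20.6 CPM in the knockdown libraries, against 15.5, 13.4 and 12.2 CPM in the control libraries. PSMB10 had 11.4, 5.19 and 9.6 CPM in the knockdown libraries, against 5.03, 5.82 and 5.07 CPM in the control libraries. Their log2 fold changes were 0.58 ± 0.26, 0.44 ± 0.29 and 0.72 ± 0.30 (SE) in that order, beside 0.41 to 0.47 for the constitutive catalytic genes. In knockdown library 2, PSMB8, PSMB9 and PSMB10 were at -0.14, -0.31 and -0.03 from the control mean, on the log2 scale, while PSMB5, PSMB6 and PSMB7 were at 0.30, 0.17 and 0.31. The immunoproteasome genes overlapped between groups through that library; the difference between both sets was not tested.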

How the data were processed

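The deposited table gives whole-number counts of reads per gene, and a second table deposited by the authors gives FPKM rounded to 2 decimals. FastQC 0.9.5 and TopHat2 ran upstream on GRCh38, per the submitters' processing notes. Not given in the sources used here are the annotation, the counter and whether counting used strand. Library totals were 34639090 to 42425310 counts. Genes passing edgeR's filterByExpr (16394 of 31582) were scaled with TMM and tested in edgeR 4.0.16 (R 4.3.3) by quasi-likelihood F-test, knockdown against control, adjusted by Benjamini-Hochberg at 0.05 over all genes tested. SE is the absolute log2 fold change over the square root of F; CPM uses TMM-scaled sizes, and log2 CPM a prior count of 2. GC content came from GENCODE 29 transcripts (99.4% of genes tested), and the correction subtracted a lowess curve (span 0.3) per library. Scripts were tested on simulated data. The members and lists were chosen with earlier results of these data known. Alternatives were other scalings, DESeq2 1.42.0, limma 3.58.1, filters, FPKM on a log2 scale, each library left out and a replicate block. Genes were named by a fixed rule (targets, 2 highest and lowest per family, members at p under 0.05, assembly factors); the other members are given by value.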

Additional observations from a re-analysis of the deposited data

How the results depend on the processing

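The count of genes past the adjusted threshold (0 in edgeR's test, 2546 at an unadjusted p under 0.05) was 530 by DESeq2, 988 without a count filter, 0 to 2604 with a library left out (2604 without knockdown library 2 and 138 without library 3), 4 with the GC correction, 14 with the replicate block and GC correction, and 5 on log2(FPKM + 1) without a filter. Subunit rows at an unadjusted p under 0.05 (9) were 4 with library size alone, 4 with the replicate block, 14 with the GC correction, 5 on log2(FPKM + 1), and 1 to 19 with a library left out. Rows higher (7) were 1 with library size alone, 2 with the replicate block, 13 with the GC correction, 2 on log2(FPKM + 1), 3 on log2(FPKM + 0.1), 3 without an FPKM filter, and 0 to 16 with a library left out. For the replicate block and the FPKM scales, the share of all genes under 0.05 is not given here. Whether the lower counts there are particular to the subunits cannot be told. The regulatory median (0.17) was 0.04 with library size alone, 0.05 on the 3 FPKM scales, and 0.10 to 0.25 with a library left out. The core median (0.29) was 0.14 with library size alone, 0.15 on the 3 FPKM scales, and 0.19 to 0.37 with a library left out. The core median and the core minus regulatory difference (0.04 to 0.12 with a library left out) kept their sign under every alternative run. Same-numbered libraries deviated from their group means with correlations of 0.195, -0.119 and -0.217, and differently numbered ones with -0.198 to 0.364. Whether the numbers pair the libraries cannot be told from these values, because deviations from a mean of 3 libraries depend on each other.

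Log2 fold changes near 0 changed sign. With library size alone they were -0.05 for PSMA2 (AC010132.3), -0.03 for PSMD13, -0.07 for PSMD14 and -0.11 for PSMD9. On FPKM scales they were -0.04, -0.05 and -0.04 for PSMA2 (AC010132.3), -0.02 for PSMC6, -0.01 for PSMD13, -0.07 for PSMD14 and -0.11 for PSMD9. With the GC correction, alone and with the block, PSMD10 was at 0.08 and 0.07, PSMD12 at 0.05 and 0.04, PSMD5 at 0.05 in both, PSMD6 at 0.15 in both and PSMD9 at -0.08 and -0.09. PSMD6 was at 0.0004 with DESeq2 factors and in DESeq2 and at 0.002 without a filter, and the PSMA2 locus sum was 0.06, an alternative added after the data were seen. With a library left out, PSMC6 ranged from -0.11 to 0.31, PSMD14 from -0.03 to 0.14, PSMD6 from -0.08 to 0.04 and PSMD9 from -0.11 upward, with -0.01 for PSMD14 without knockdown library 2, 0.02 and 0.005 for PSMD6, and -0.03 and -0.002 for PSMD9 among them. The causes were not tested. With 3 libraries a group, SEs of 0.14 to 0.28 on the log2 scale limit what can be told apart from 0.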
